A study of Mus musculus with 5 samples.

Results

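The somatostatin family consists of 2 peptide precursor genes, Sst (somatostatin) and Cort (cortistatin), and 5 receptor genes, Sstr1 to Sstr5. All 7 were found by symbol among the 23234 gene rows of the authors' table, and 4 of them, Sst, Cort, Sstr1 and Sstr2, are among its 11876 tested genes. The table compares cells carrying a Ptf1a and GFP construct with cells carrying GFP alone. Ptf1a is a transcription factor of the basic helix-loop-helix family that directs progenitors of the cerebellum, retina and spinal cord toward inhibitory neurons, and the series title concerns its effect on inhibitory and peptide-releasing identity in cortical pyramidal cells. Cortices of CD1 mouse embryos were electroporated at E12.5 (embryonic day), and GFP-positive cells, labelled as embryonic cortical pyramidal cells, were sorted at E15.5. There were 3 Ptf1a samples and 2 GFP-only samples, each pooled from 3 to 6 brains. Every value below is the authors' single merged value for a group, so no value per sample, SD or depth is given. The labels do not name the promoter that drives the construct. Ptf1a itself was at 0.210 FPKM (fragments scaled to transcript length and to library size) in control cells and 38.9 FPKM in Ptf1a cells, and these values cannot separate transcripts of the construct from the cells' own.

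Somatostatin is a small cyclic peptide cut from the end of a larger precursor. It slows release of hormones and transmitters, and in the mature cortex it marks a large class of inhibitory interneurons that contact dendrites. Cortistatin is a closely related peptide of cortical interneurons that binds the same receptors. The receptors are coupled to inhibitory G proteins: they lower cyclic AMP, open G-protein-gated potassium channels, close calcium channels and engage tyrosine phosphatases. Sstr2 is the receptor best known from newly born cortical neurons, and the Sst gene is a textbook target of cyclic AMP signalling through the factor Creb1.

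The kinship of both peptides is visible in their genes. The last 14 codons before the stop, which encode the short mature forms, are shown from GENCODE M21 transcripts because the peptides' shared core is why both precursors belong with the same receptors. The stretch of Sst lies at chr16:23889732-23889773 and that of Cort at chr4:149125267-149125308, both on the minus strand of GRCm38.
Sst: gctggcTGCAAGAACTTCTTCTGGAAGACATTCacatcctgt
Cort: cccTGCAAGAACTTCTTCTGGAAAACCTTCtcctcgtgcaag
Capitals mark the longest run of codons that encode the same residues in both genes, 9 codons long, in which 25 of 27 bases are identical. Aligned with a shift of 1 codon, 11 of 13 codons encode the same residue.

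Somatostatin precursor RNA was higher in Ptf1a cells, its main receptor was slightly lower, and cortistatin and the other receptors either did not pass the test or had no test, at 0.358 FPKM or less. In the authors' Cuffdiff test at a q under 0.05, which defines "rose" and "fell" here, 1 member rose and 1 fell. Over all tested genes 37.7% were called (18.7% rose and 19.1% fell), so 1 of 4 in each direction is near the background and says nothing of the family as a group.

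**Figure D1:**
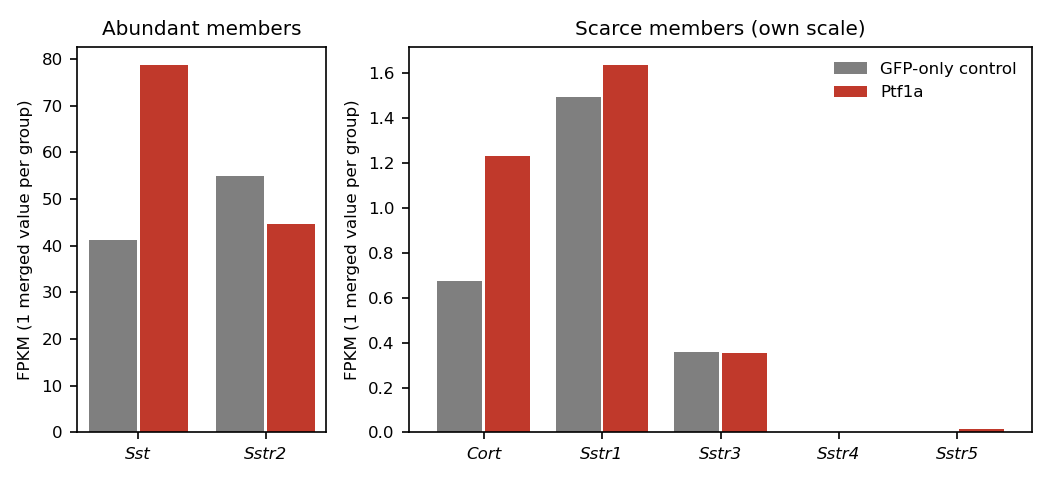
Bars give the authors' merged FPKM of each member in GFP-only control cells (grey) and Ptf1a cells (red), with scarce members on their own scale and no error bars, since each group has 1 value. Sst stands at 41.3 and 78.6 FPKM and Sstr2 at 55.0 and 44.7 FPKM, while no other member exceeds 1.64 FPKM.

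Among the peptides, Sst (chromosome 16, 23889667 to 23890930, mm9) was at 41.3 FPKM in control cells and 78.6 FPKM in Ptf1a cells, a ratio of 1.90. The deposited log2 fold was 0.93, with a standard error of 0.23 implied by the deposited test statistic and q = 0.000329 in the authors' deposited table. Its p of 5e-05 is the smallest in the table, shared with 1803 genes in all, of which 873 rose, so it does not rank Sst among them. Of tested genes, 8.78% had a larger log2 difference than the 0.93 of Sst on the log2(FPKM + 0.1) scale.

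Sst was already abundant in control cells. Of 55 neuropeptide precursor genes compared, Sst and Cort included, it ranked second in both groups, behind Npy (neuropeptide Y, 100.3 and 97.5 FPKM, not called). Sst made up 17.7% of the summed FPKM of these precursors in control cells and 24.8% in Ptf1a cells. Among the other precursors, 7 of 25 tested members rose (28.0%) and 4 fell (16.0%), beside 18.7% and 19.1% of all tested genes. The rises of all 7 (Nxph4, Pnoc, Tac2, Penk, Gal, Nppc and Nts) were larger in ratio than that of Sst but started from 4.82 FPKM or less. Penk, the enkephalin precursor, went from 4.82 to 17.7 FPKM, a gain of fewer FPKM than that of Sst. Tests of the differences between these genes were not possible from merged values.

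Cort (chromosome 4, 148499300 to 148500850, mm9) was at 0.674 FPKM in control cells and 1.23 FPKM in Ptf1a cells, a ratio of 1.83, close to that of Sst, but did not pass the test (deposited log2 fold 0.87, q = 0.351). The implied standard error was 1.05, and a normal 95% interval from it runs from -1.19 to 2.93 on the log2 scale. It holds the fold of Sst as well as no change. This interval is not that of the authors' test, whose p-values differ from normal ones, as given for Sstr2 below. Sst stood 61.3 times above Cort in control cells and 63.9 times above it in Ptf1a cells. The deposited table places Cort 1607 bp from Apitd1, a centromere protein gene, which was at 35.5 and 37.2 FPKM and was not called; whether Cort's reads include transcripts running on from that neighbour was not tested.

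Among the receptors, 0 of 2 tested members rose and 1 fell, beside 18.7% and 19.1% of all tested genes. So few genes say nothing of the receptors as a group. Of the 2, 1 had an unadjusted p under 0.05, for which no share over all genes is given here. Sstr2 (chromosome 11, 113485571 to 113486950, mm9), the dominant receptor, went from 55.0 to 44.7 FPKM, a ratio of 0.812. The deposited log2 fold was -0.30 with an implied standard error of 0.28. A normal 95% interval from it, -0.84 to 0.24, holds no change although the gene is called. Its q of 0.0497 lies just inside the threshold: 4471 of the 4480 called genes have a lower q and 4 a higher one, and the first q outside is 0.0501. A two-sided normal p from the deposited test statistic is 0.279, against the deposited p of 0.0188. At a q under 0.01 (25.9% of tested genes called), with a minimum change of 1.5-fold (21.6%) or from normal p-values adjusted over genes (6.12%), Sst was called and Sstr2 was not.

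The size of the Sstr2 difference also depends on scale, under which no call was recomputed. The FPKM of all rows sum to 916612 in control cells and 752115 in Ptf1a cells, and bringing both to the same sum shifts all log2 folds up by 0.29, which leaves Sstr2 at -0.014 and Sst at 1.21. In 16 rows marked as having too much data a group is listed at 0, which lowers these sums by an unknown amount. The span of the deposited Sstr2 row, 1380 bp, equals that of GENCODE's single-exon transcript, whereas the longest GENCODE transcript spans 6687 bp, and the gene models used for counting are not given in the sources used here. GENCODE M21 places Sstr2 inside Slc39a11, a zinc transporter gene on the opposite strand, but in the deposited table (mm9) the row of Slc39a11 (113106169 to 113427129) ends before that of Sstr2 and does not overlap it. Slc39a11 went from 17.8 to 13.0 FPKM and fell (q = 0.00331 in the authors' deposited table). Whether unspliced reads of Slc39a11 fall into the Sstr2 row was not tested.

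Sstr1 (chromosome 12, 59312791 to 59317023, mm9) was at 1.49 and 1.64 FPKM and was not called (deposited log2 fold 0.13, implied standard error 0.45, q = 0.665). Its normal 95% interval, -0.76 to 1.02, leaves room for a change in either direction. Sstr3 (chromosome 15, 78367445 to 78374775), a receptor of neuronal cilia, was at 0.358 FPKM in control cells and 0.355 FPKM in Ptf1a cells and was not tested. Sstr4 (chromosome 2, 148221113 to 148222500) was listed at 0 in both groups, and Sstr5 (chromosome 17, 25626820 to 25634233), known for its role in pituitary and islet cells, at 0 in control cells and 0.0142 FPKM in Ptf1a cells, both without a test. In order of level, Sstr2 therefore led, followed by Sstr1, Sstr3, Sstr5 and Sstr4. Sstr2 held 96.7% of the summed receptor FPKM in control cells and 95.7% in Ptf1a cells. The ratio of Sst to Sstr2 went from 0.751 to 1.76, so the precursor was the less abundant of the pair in control cells and the more abundant in Ptf1a cells. Per-length values of genes with different models carry the error of those models.

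Abundance moved with the groups in this table, so both called members were set beside genes of like level. Sst and Sstr2 fall in the same decile of mean expression, from 40.7 to 113 FPKM over 1048 genes, among the 10484 tested genes of at least 1 FPKM in either group. In that decile 95 genes (9.06%) rose and 353 (33.7%) fell, with a median log2 difference of -0.16. Sst was 1.08 above that median and Sstr2 0.14 below it (a difference of -0.14), about the size of the median itself. Cort lies in the lowest decile, whose median was 0.33, and Sstr1 in the next, whose median was 0.15. Cort, like other genes of that decile, reaches 1 FPKM in 1 group only, so the filter itself shapes that median and nothing is read from Cort's place beside it. Sstr1's difference of 0.12 was at its decile's median. The implied standard error of Sst, 0.23, equals the median of its decile, while that of Cort, 1.05, exceeds its decile's median of 0.59.

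**Figure D2:**
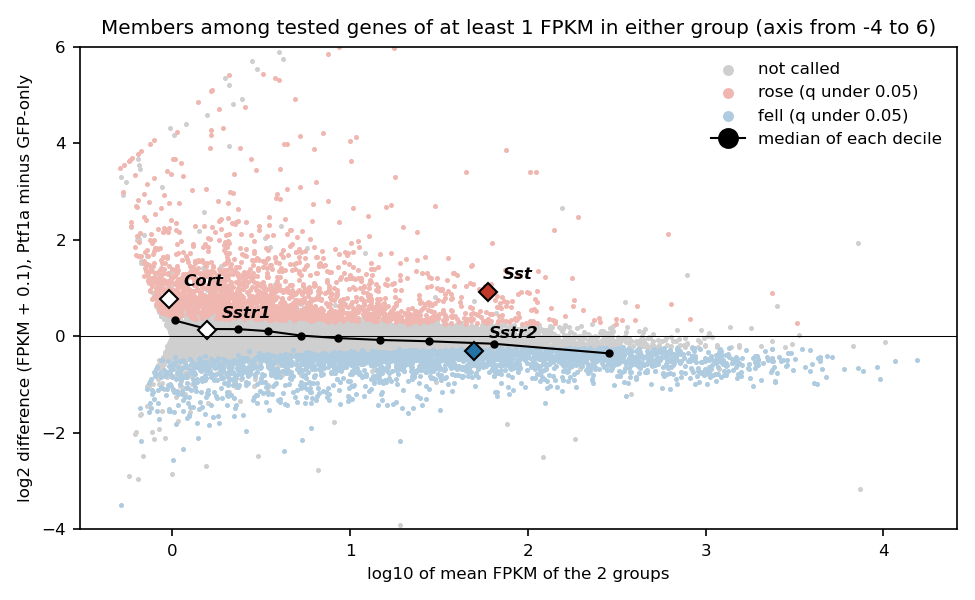
Each point is a tested gene of at least 1 FPKM in either group, by log10 of its mean FPKM and its log2 difference, Ptf1a minus GFP-only; black dots join the medians of expression deciles, diamonds are members, and 12 genes below the axis and 21 above it are not drawn. Sst lies 1.08 above the median of its level, while Sstr2 lies 0.14 below it (a difference of -0.14).

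Genes with the most similar pair of group values were found by distance over the 2 merged values on the log2 scale. Those nearest to Sst were Pbk, a mitotic kinase (39.7 and 84.1 FPKM), Rrm2, a ribonucleotide reductase subunit of S phase (37.3 and 77.2 FPKM), and Vgll4, a cofactor of TEAD factors (48.8 and 82.0 FPKM), and all 3 rose. Nearest to Sstr2 were Pde6d, Sfxn1 and Poldip2, all fallen with q values of 0.0463, 0.0144 and 0.0367 in the authors' deposited table. Nearest to Cort were Pdxk, Dock11 and Slc12a2, which all rose, at values almost those of Cort. For Sstr1 they were Zfp790, Bicd2 and Mtmr1, none called. With 2 values per gene, many genes share a pattern.

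Sst is a marker of interneurons from the medial ganglionic eminence, so a list of interneuron markers was read beside it. The list is not specific to that origin: Gad1, Gad2 and Dlx5 belong to inhibitory neurons more widely, and Calb2 and Reln are not particular to it. Of 28 listed markers 15 were tested, and 10 rose and 0 fell (5 were not called), with a median log2 difference of 1.02 against -0.01 over all tested genes. The share risen, 66.7%, stands beside 18.7% of all tested genes, and beside 34.1% and 24.2% in the lowest 2 deciles of expression, where many of these markers lie. The calcium-binding protein gene Calb2 went from 9.65 to 141 FPKM and Gad2, which makes GABA, from 1.05 to 3.39 FPKM. Sox6 went from 0.536 to 1.57 FPKM and Lhx6, the factor that specifies interneurons of the medial ganglionic eminence, from 0.691 to 1.72 FPKM. Calb1 and Tac1 were not called, nor was Npy. The summed level of the list was 129 FPKM in control cells and 270 FPKM in Ptf1a cells, most of it Npy and Calb2. In control cells Sst was thus far above Lhx6, Sox6 and Gad2, which stood near or below 1 FPKM. Of markers without a test, the vesicular GABA transporter Slc32a1 was at 0.0658 and 0.104 FPKM and Nkx2-1 at 0.168 and 0.290 FPKM. The nicotinic receptor gene Chrna2 was listed at 0 in both groups. Also untested, Npas1 (0.250 and 0.140 FPKM), Grin3a (0.179 and 0.126 FPKM), Crhbp (0.102 and 0.0686 FPKM) and Nos1 (0.411 and 0.336 FPKM) were lower in Ptf1a cells. The remaining untested markers, Dlx2, Dlx6, Elfn1, Erbb4, Maf and Pvalb, were higher. In bulk samples more cells of a type and more RNA per cell cannot be told apart, and the part of interneurons among the sorted cells in the level or rise of Sst was not tested.

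**Figure D3:**
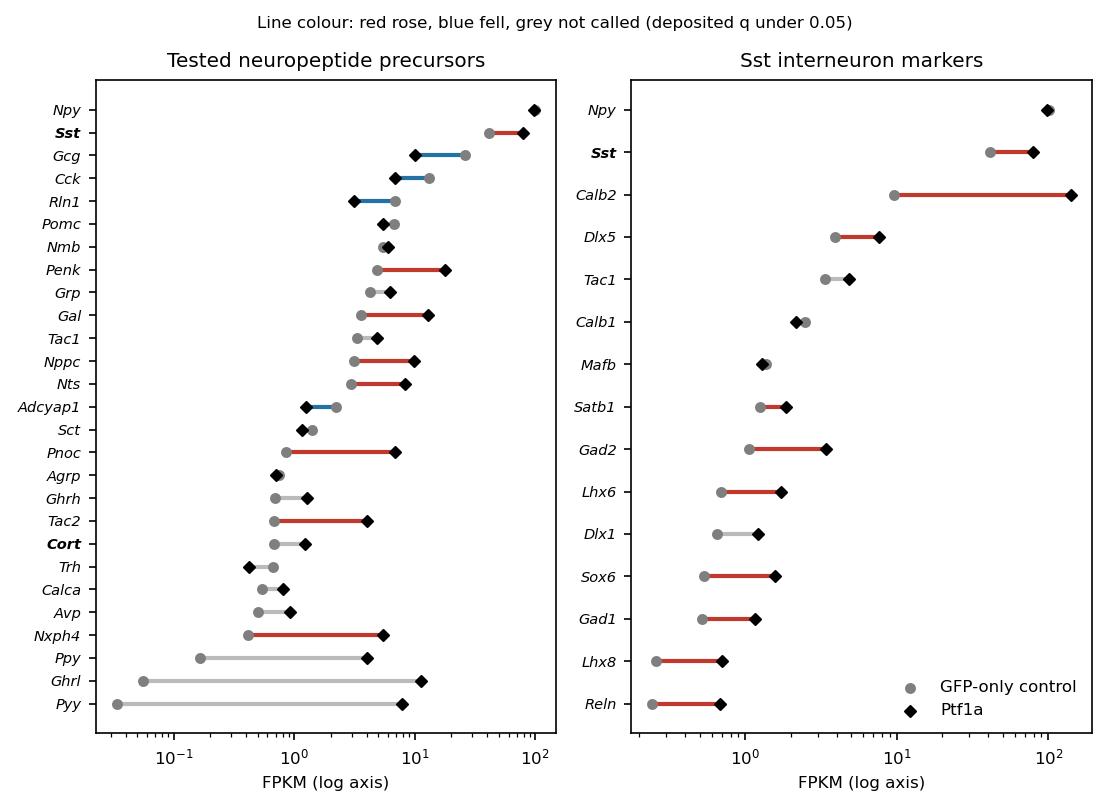
Grey circles give FPKM in GFP-only control cells and black diamonds in Ptf1a cells on a log axis, for tested neuropeptide precursors with Sst and Cort (left) and interneuron markers with Sst (right; 1 tested marker is not drawn); red lines mark genes that rose, blue fell and grey not called. Genes are ordered by their control level, by which Sst is second in both panels; among the markers in Ptf1a cells Calb2 (141 FPKM) and Npy (97.5 FPKM) both exceed it, and most marker genes drawn have red lines.

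The labelled cell type was checked against its markers. All 14 pyramidal neuron markers were tested and present in both groups, led by Neurod6 at 1717 and 1190 FPKM. Of these markers 7 fell (50%) and 0 rose. Each count in this paragraph stands beside 18.7% of all tested genes risen and 19.1% fallen. All 10 radial glia and progenitor markers rose, among them Pax6 (3.73 to 21.5 FPKM), Nes (1.03 to 5.15 FPKM), Mki67 and Hes1. In sum these progenitor markers stood at 1806 FPKM in control cells and 3465 FPKM in Ptf1a cells, most of it Fabp7 (1652 and 3095 FPKM). The pyramidal markers summed to 1969 and 1401 FPKM, so they were the lower of the 2 lists in Ptf1a cells. Markers of vessels, blood, microglia and meninges were lower in sum than pyramidal markers: 3.88 and 6.48 FPKM for 7 endothelial genes, 155 and 69.4 FPKM for 10 microglia and blood genes, and 4.66 and 5.35 FPKM for 8 meningeal and mural genes. Of these 1 of 2 tested endothelial genes rose (Esam), 3 of 8 tested blood and microglia genes fell (Hbb-y, Hbb-b2, Tyrobp), and 2 of 4 tested meningeal and mural genes rose (Pdgfrb, Rgs5) and 1 fell (Dcn). Another somatostatin cell, the delta cell of the pancreatic islet, was read from 13 islet genes. The list includes hormones of other islet cells (Gcg of alpha cells, Ins1, Ins2 and Iapp of beta cells, Ppy of PP cells). The listed factor genes Hhex and Pdx1, the latter not particular to delta cells, were at 0 in control cells. They were at 0.0118 and 0.0183 FPKM in Ptf1a cells. Of the 7 tested genes 3 rose (Ins2, Rbp4 and Isl1) and 2 fell (Pcsk1 and Gcg), while Ppy was not called. The sum of these islet genes stood at 33.7 and 25.6 FPKM, of which Gcg made up 26.1 and 10.0 FPKM. How much these shifts in markers bear on Sst was not tested.

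Factors known to bind the Sst promoter in islet or neural cells numbered 12 tested genes, of which 3 rose (25.0%) and 2 fell (16.7%), near the 18.7% and 19.1% of all tested genes, with a median log2 difference of 0.32. Pax6 rose most, and Isl1 went from 2.58 to 4.53 FPKM. Neurod1 fell from 50.6 to 35.9 FPKM. Creb1 stood at 3.23 and 3.99 FPKM, its relative Crem at 4.66 and 4.74 FPKM and the coactivator Crtc1 at 5.18 and 5.04 FPKM, none called. Pax6 and Isl1 are also markers on other lists here.

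Both called members carry a full cyclic AMP response element close to a RefSeq start, which is why their upstream bases are shown. The 250 bases before the RefSeq start of Sst (chr16:23890845-23891094, minus strand, GRCm38.p6) and of Sstr2 (chr11:113619077-113619326, plus strand, GRCm38.p6) read as follows.
Sst: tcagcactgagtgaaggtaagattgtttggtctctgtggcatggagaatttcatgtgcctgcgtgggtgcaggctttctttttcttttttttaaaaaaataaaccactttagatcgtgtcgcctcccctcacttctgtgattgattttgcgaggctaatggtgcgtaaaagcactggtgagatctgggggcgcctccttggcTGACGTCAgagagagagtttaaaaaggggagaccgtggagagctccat
Sstr2: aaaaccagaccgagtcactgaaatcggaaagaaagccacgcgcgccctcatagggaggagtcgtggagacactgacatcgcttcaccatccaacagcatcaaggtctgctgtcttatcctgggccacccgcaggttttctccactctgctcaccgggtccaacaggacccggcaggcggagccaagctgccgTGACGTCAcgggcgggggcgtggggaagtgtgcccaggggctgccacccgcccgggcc
Capitals mark TGACGTCA, which reads the same on both strands. It begins 48 bases before the RefSeq start in Sst and 58 bases before it in Sstr2. GENCODE's Sst-201 transcript starts farther upstream, at 23890958 (GRCm38), inside the Sst window, so the marked letters of Sst lie within that transcript. The Sstr2 window lies before the start of the longer transcripts, whereas the single-exon transcript that has the span of the deposited row starts at 113624257 (GRCm38), beyond this window. Promoter windows were found for 5 of the 7 members, 6 windows in all, and none of the windows of Cort, Sstr3 and Sstr4 holds these letters. Of all 32851 RefSeq windows of this length 1.55% do. Ptf1a works in a complex that reads an E-box beside an Rbpj site. The E-box CANNTG, searched on both strands, is found once in the Sst window (CATGTG, beginning 199 bases before the start) and not in that of Sstr2, against 66.2% of all windows. The Rbpj site TTCCCA, searched on both strands, is in neither, against 21.6% of all windows. The windows of Cort and Sstr4 and 1 of the 2 windows of Sstr3 hold 2 E-boxes each, and the other Sstr3 window holds the Rbpj site. These matches describe letters only, and sites outside the windows were not searched.

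Genes that make, carry and break down the signal were counted in 9 lists holding 104 genes. Of the 70 tested, 16 rose (22.9%) and 15 fell (21.4%), near the shares over all tested genes, and the median log2 difference was 0.06 against -0.01. Precursor processing genes had 1 of 12 risen (8.33%) and 4 fallen (33.3%, median -0.17), beside 18.7% and 19.1% of all tested genes. The prohormone convertase gene Pcsk1 went from 0.818 to 0.229 FPKM, its inhibitor Pcsk1n from 8.05 to 4.41 FPKM, the convertase chaperone Scg5 from 758 to 559 FPKM and the granin Scg2 from 18.9 to 13.8 FPKM, all fallen. Carboxypeptidase E (Cpe, 90.5 and 95.4 FPKM), Chga and Scg3 were not called, and the granin Chgb, chosen after its values were seen, rose from 14.6 to 18.7 FPKM. Of peptidases that degrade somatostatin, Ide rose (1.29 to 2.49 FPKM), Thop1 and Nln were not called, and neprilysin (Mme) was at 0.0213 and 0.0759 FPKM without a test.

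Downstream of the receptors, inhibitory G protein subunits had 3 of 16 risen (18.75%) and 5 fallen (31.25%, median -0.18). Of all tested genes 18.7% rose and 19.1% fell. Gng10 (383 to 256 FPKM), Gnb2 (93.9 to 64.7 FPKM) and Gnaz (2.34 to 1.53 FPKM) fell, and Gng12 rose from 1.84 to 3.04 FPKM. Gnb1, Gnb5 and Gnao1, the main inhibitory alpha subunit of neurons, at 25.0 and 20.4 FPKM, were not called. Another inhibitory alpha subunit gene, Gnai2, chosen after its values were seen, rose from 26.1 to 35.2 FPKM. Of adenylate cyclases, which the receptors inhibit, Adcy6 rose (0.446 to 0.706 FPKM), while Adcy2 and Adcy5 were not called and 6 of 9 had no test. Among channels, the N-type calcium channel gene Cacna1b rose from 0.250 to 0.590 FPKM. The potassium channel subunit genes Kcnj3 (0.654 and 1.17 FPKM) and Kcnj6 (0.0449 and 1.00 FPKM) were not called (q = 0.0752 and 0.186 in the authors' deposited table). The phosphatase gene Ptpn11 and the cell cycle inhibitor gene Cdkn1b were not called, and Plagl1, a growth-arrest factor gene, rose from 1.21 to 2.67 FPKM.

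**Figure D4:**
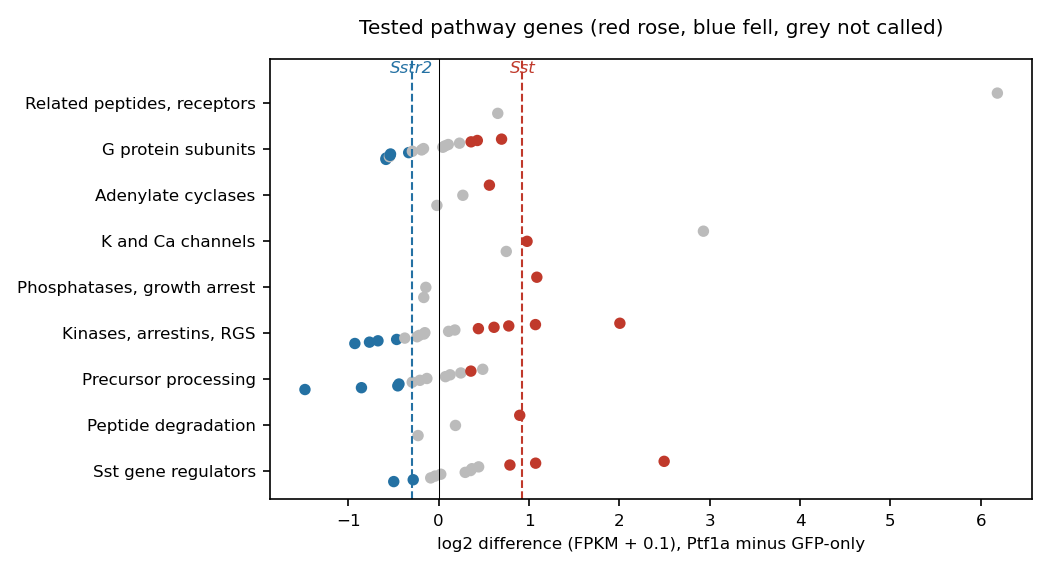
Each point is a tested gene of 1 of the 9 pathway lists, by its log2 difference on the log2(FPKM + 0.1) scale, Ptf1a minus GFP-only; red rose, blue fell, grey not called, and dashed lines give Sst and Sstr2. Risen genes number 16 and fallen genes 15, and 4 of the 9 lists hold both.

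Receptor kinases, arrestins, RGS proteins and receptor scaffolds had 5 of 16 risen (31.25%) and 4 fallen (25%, median -0.16). The shares over all tested genes were 18.7% and 19.1%. The scaffold gene Shank1, chosen after its values were seen, was among the risen (1.00 to 1.59 FPKM). Adrbk2, a kinase that marks active receptors for arrestin, rose from 0.254 to 1.32 FPKM, and Rgs20 and Rgs16, which speed the inactivation of G proteins, rose from 2.42 to 5.20 FPKM and from 0.910 to 1.63 FPKM. Rgs2 fell from 12.8 to 6.67 FPKM. Adrbk1, Grk4 and Rgs19 were not called. Of related peptides and receptors, 0 of 2 tested genes passed. Ghrelin (Ghrl), whose receptor also binds cortistatin, was at 0.0556 and 11.2 FPKM with q = 0.288 in the authors' deposited table, and its receptor Ghsr at 0.0209 and 0.00610 FPKM without a test. Mchr1 (0.633 and 1.05 FPKM, q = 0.0830) missed the threshold. The somatostatin paralogs Uts2 and Uts2d, urotensin peptides, were listed at 0 in control cells, and their receptor Uts2r at 0.0573 FPKM.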

How the data were processed

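RNA of sorted GFP-positive cortical cells was amplified from 2.1 to 7.8 ng and read from both ends at 50 bp, per the labels' protocols. The submitters' processing notes name Cuffdiff, Cufflinks 2.1.1, TopHat2 2.0.8, CASAVA 1.8.2 and the build mm9; annotation and parameters are not given in the sources used here. The deposited table holds 1 FPKM per gene and group, a log2 fold, a signed test statistic (a score), and a p-value with its q-value, per the file headers. The column headed PIG was read as the Ptf1a construct, the other being headed GFP.

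Log2 differences were computed as log2(FPKM + 0.1), which understates changes of weak genes. Calls use the deposited q under 0.05, adjusted by the authors over tested genes; recomputing it from p gave the same values within 5.2e-07. Implied standard errors are the deposited log2 fold over its statistic. Intervals from them assume a normal scale, which the deposited p-values do not follow. Table starts were taken as 0-based, since the Sstr2 and Sstr5 spans then equal annotated transcripts, and are given 1-based. Promoter bases are RefSeq's and coding bases GENCODE's (GRCm38), never mixed with mm9 coordinates. Members and the 18 lists were chosen with earlier results of these data known. Named genes are all members, up to 4 called genes per list with the largest difference, up to 3 uncalled with the highest mean FPKM, and the 3 nearest genes to each tested member; some genes that this rule names are not reported here, and others named were chosen after their values were seen. The adjustment step was run on simulated normal scores, unlike the deposited p-values, so this does not test the deposited calls. A check of the centring step holds by arithmetic for any data. Python 3.11.15, pandas 2.3.3 and scipy 1.17.1 were used.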

Additional observations from a re-analysis of the deposited data

How the results depend on the processing

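Sst kept its call under all 5 alternatives of threshold and adjustment and its direction under all 5 of scale and pseudocount, for which no call was recomputed. With each group rescaled to the same FPKM sum, the log2 difference of Sst was 1.21 and that of Sstr2 -0.014, against 0.93 and -0.30; Sstr2 stayed negative under all 5 alternatives of scale and pseudocount. At a q under 0.01, with a minimum of 1.5-fold and with normal p-values of the deposited statistic, 1 member (Sst) and 0 receptors were called, against 2 and 1; the cause was not tested. Sstr2 had an adjusted p of 0.695 with the normal p-values and 0.0480 when adjusted over genes of at least 1 FPKM, and Sst 0.00282 and 0.000300. Pathway calls, of 70 tested genes, went from 31 to 18 with the 1.5-fold minimum (12 rose, 6 fell). That rule calls 13.6% of all tested genes risen and 8.06% fallen. With the normal p-values, where 6.12% of all genes are called, 3 pathway genes were called. Uncalled Cort and Sstr1 had no call in any setting, and Sstr1's difference was -0.03 when centred on its decile. No paired analysis was possible because each group has a single merged value, which also prevents leaving out a sample.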
